A study of Mus musculus with 8 samples.

Results

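A set of 10 interferon-induced antiviral effector genes was followed: Rtp4, Ifi44, Bst2 (tetherin), Mx1, Mx2, Samd9l, Xaf1, Ifi35, Trim30a and Phf11d. They were listed by symbol, with earlier results of these arrays known. A probe on the array was taken as a member's when its transcript name mapped to the symbol through RefSeq, which gave 10 probes for 8 of the 10 genes, among 55681 probes and 22460 genes tested. Mx1 and Mx2 could not be matched in this way and were not analysed here. All 8 matched genes passed the filter on dim probes, which asked that both arrays of some group had a signal well above background. The cells were BV-2, an immortalised line of mouse microglia (the resident macrophages of the brain), grown with serum and given 1 of 4 treatments for 24 h. LPS+HF cells received lipopolysaccharide (LPS, 1 µg/mL) and, at 100 µg/mL, HF, the hexane fraction prepared from a mushroom, Amauroderma rugosum. LPS cells received LPS alone at the same dose, HF cells received the fraction alone, and control cells received neither. Each group had 2 single-colour arrays, called biological duplicates by the submitters. Nothing says that the duplicates came from separate cultures, so the p-values measure only the spread between these arrays.

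Interferons made after a cell senses microbial products bind receptors on the same and neighbouring cells and activate transcription factors in them. The genes these raise, a broad antiviral set, often carry an element built from paired GAAA letters. LPS reaches the same programme in macrophages and microglia through Toll-like receptor 4, which induces interferon beta. Among the members, tetherin holds budding enveloped viruses at the cell surface, and Mx proteins are GTPases that trap viral components. Others act on cell death or on signalling.

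The promoters of the members are shown because genes raised by interferon often carry the element named above in their letters. RefSeq sequences (build GRCm38.p6, from 250 bases before to 50 bases after a transcription start) were given for 7 of the 10 genes, Trim30a with 2 starts, and none for Rtp4, Mx1 or Mx2. Capitals mark GAAA pairs, either GAAANNGAAA (a spacer of 2 bases) or GAAANGAAA (a spacer of 1 base), searched on both strands, so that a match on the other strand reads as paired TTTC. The search for the shorter form was added after these promoters had been read. The whole promoters of Ifi44 (chr3:151749861-151750160, minus strand), Bst2 (chr8:71537423-71537722, minus strand) and Phf11d (chr14:59365441-59365740, minus strand) run 5′ to 3′ as follows.
Ifi44 promoter: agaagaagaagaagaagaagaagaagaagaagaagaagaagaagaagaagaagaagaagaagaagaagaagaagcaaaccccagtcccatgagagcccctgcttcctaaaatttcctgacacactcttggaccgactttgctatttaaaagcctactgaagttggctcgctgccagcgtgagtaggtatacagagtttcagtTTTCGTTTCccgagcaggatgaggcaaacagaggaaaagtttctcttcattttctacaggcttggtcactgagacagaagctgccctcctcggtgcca
Bst2 promoter: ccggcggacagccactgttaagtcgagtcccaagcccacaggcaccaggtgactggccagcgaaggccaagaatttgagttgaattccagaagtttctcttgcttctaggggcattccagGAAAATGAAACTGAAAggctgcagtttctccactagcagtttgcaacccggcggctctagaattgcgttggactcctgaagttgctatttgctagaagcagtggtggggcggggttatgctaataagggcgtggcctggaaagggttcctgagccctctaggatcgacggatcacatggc
Phf11d promoter: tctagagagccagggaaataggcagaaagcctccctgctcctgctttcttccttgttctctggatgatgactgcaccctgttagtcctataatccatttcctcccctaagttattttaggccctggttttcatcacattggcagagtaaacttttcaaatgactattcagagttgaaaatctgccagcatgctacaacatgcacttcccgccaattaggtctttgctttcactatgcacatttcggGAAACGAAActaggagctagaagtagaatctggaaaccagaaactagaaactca
Shorter stretches around the matches are given for Xaf1 (chr11:72301624-72301662, plus strand), Ifi35 (chr11:101448410-101448448, plus strand) and the 2 starts of Trim30a (chr7:104465170-104465244 and chr7:104446076-104446138, minus strand).
Xaf1: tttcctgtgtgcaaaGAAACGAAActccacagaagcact
Ifi35: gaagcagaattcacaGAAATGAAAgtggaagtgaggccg
Trim30a start 1: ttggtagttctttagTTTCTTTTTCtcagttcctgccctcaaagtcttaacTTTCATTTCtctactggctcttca
Trim30a start 2: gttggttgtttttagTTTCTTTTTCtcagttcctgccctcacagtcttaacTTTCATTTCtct

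Of the 7 genes with a promoter, 6 held a GAAA pair of either form, and Samd9l held none in this window. The 2-base form stood in 2 of them, Bst2 and Trim30a, and the 1-base form in 5: Ifi44, Xaf1, Ifi35, Trim30a and Phf11d. Of all 32851 promoter windows of the table, 3.44% held the 2-base form, 3.17% the 1-base form and 6.27% either. The 1-base form was added after these promoters had been read. Its count in the members, and that of either form, are therefore no test against these shares. In Bst2, a pair of overlapping 2-base matches began at positions -130 and -124, counted from the start base as 0. In Phf11d the pair lay across the start (-4 to 4), in Xaf1 it lay at 10 to 18, in Ifi35 at 13 to 21, and in Ifi44 at -48 to -40. Among 39 other interferon-stimulated genes with a promoter, 22 held the 2-base form, 6 the 1-base form and 24 either. A match describes the letters and is not a measured binding site.

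**Figure D1:**
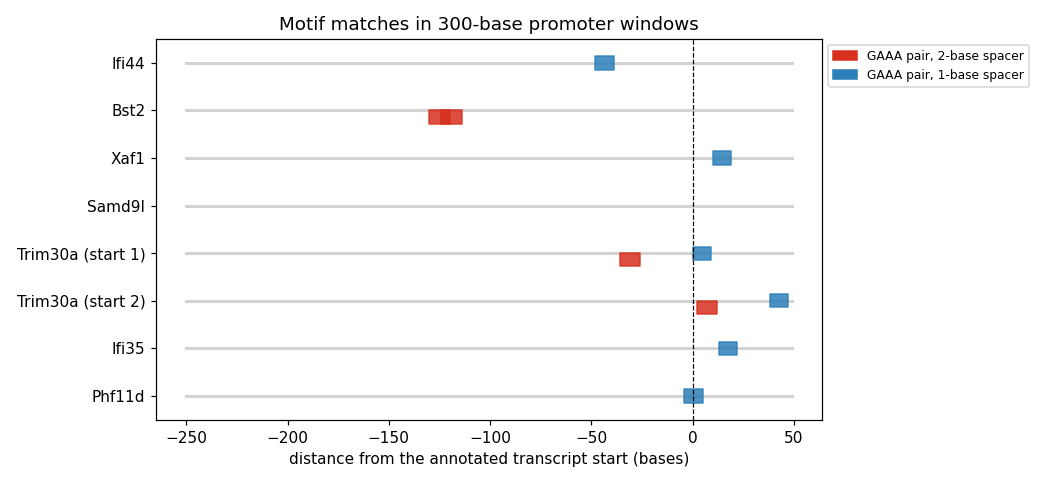
Positions of GAAA pairs in the promoters of 7 antiviral effector genes, by distance in bases from the transcription start, with each start of Trim30a on its own line. The matches lie between positions -130 and 46, and the Samd9l line is empty.

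All 8 arrays lay on 1 slide, with both HF-treated groups in the second row and both groups without HF in the first, and with the LPS-treated groups in columns 3 and 4, so position and treatment cannot be told apart. Values below are log2 of the processed signal relative to the array's 75th percentile, so a level is compared between groups for 1 probe at a time. That percentile was 346 to 527 brightness units on the 4 arrays with HF and 247 to 286 on the 4 without, and 47.8% to 55.0% of probes were well above background. Control replicate 1 stood apart: spots repeating 1 probe varied by 57.6%, against 4.85% to 9.11% on the other arrays, and 16.8% of its spots were dimmed more than 4-fold. It and HF replicate 1 were marked for evaluation by the scanner's quality report. Of 12 microglial and macrophage markers, 10 were above background on all 8 arrays, and Cx3cr1 and P2ry12 on some. Of 21 markers of 6 other cell types, 9 were above background on all arrays, and 6, among them Olig2, Col1a1 and Ms4a1, on none. None of the 13 that could be tested passed in any of the 6 comparisons, and their part in the results was not tested.

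The mean level of each of the 8 antiviral effectors measured was highest in LPS cells and lowest in HF cells. How many of all genes share that order is not given here. Trim30a, however, was not well above background in HF or control cells and passed the filter only through the LPS-treated groups. Its rises with LPS in the counts are therefore not independent of the filter. Relative to LPS cells, LPS+HF cells had lower levels of Rtp4, Ifi44, Bst2, Ifi35, Trim30a and Phf11d, 6 of the 8, against 3.26% of all genes called lower. Relative to control cells, LPS cells had higher levels of the same 6 genes, against 4.8% of all genes called higher. Relative to control cells, HF cells had lower levels of Rtp4, Ifi44, Samd9l and Phf11d. Trim30a passed too, for a count of 5 of the 8 against 0.739% of all genes called lower, but it was below background on both sides, so 4 of these falls were measured. Genes were called with limma across all 22460 genes at an adjusted p under 0.05. Most of the calls above were lost when 1 array of the treated groups compared was left out. For HF minus control this held for any 1 of the 6 treated arrays. No called difference changed sign. Without either control array the counts were no smaller. Over all genes, too, fewer were called without any 1 treated array and more without either control array, in each of these comparisons. Such changes are therefore not particular to the members. For HF minus control 8 passed after a correction for local dimming of the arrays, where 1345 of all 22460 genes were called lower.

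With the fraction present, LPS still raised some of these genes: LPS+HF cells exceeded HF cells in Rtp4, Ifi44, Trim30a and Samd9l, 4 of the 8, against 0.904% of all genes called higher. Set directly against control cells, LPS+HF cells differed in Rtp4 alone, 1 of the 8, which was lower, against 3.17% of all genes called lower and 1.92% called higher. With 1 array left out, the count for LPS+HF minus HF was smallest without LPS+HF replicate 1 or HF replicate 1. The Rtp4 call in LPS+HF minus control was lost without any 1 of the 6 treated arrays. Over all genes, too, fewer were called in both comparisons without any 1 treated array and more without either control array. The median log2 difference of the 8 genes was -2.36 for LPS+HF minus LPS, -1.72 for HF minus control, 1.75 for LPS minus control, 1.85 for LPS+HF minus HF and -0.35 for LPS+HF minus control. Over all genes tested the medians were -0.07, -0.07, -0.08, -0.08 and -0.13 in the same order. The median of the 8 for HF minus control includes Trim30a, which was below background in both of those groups. The comparisons share groups, so their values are not independent of each other.

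**Figure D2:**
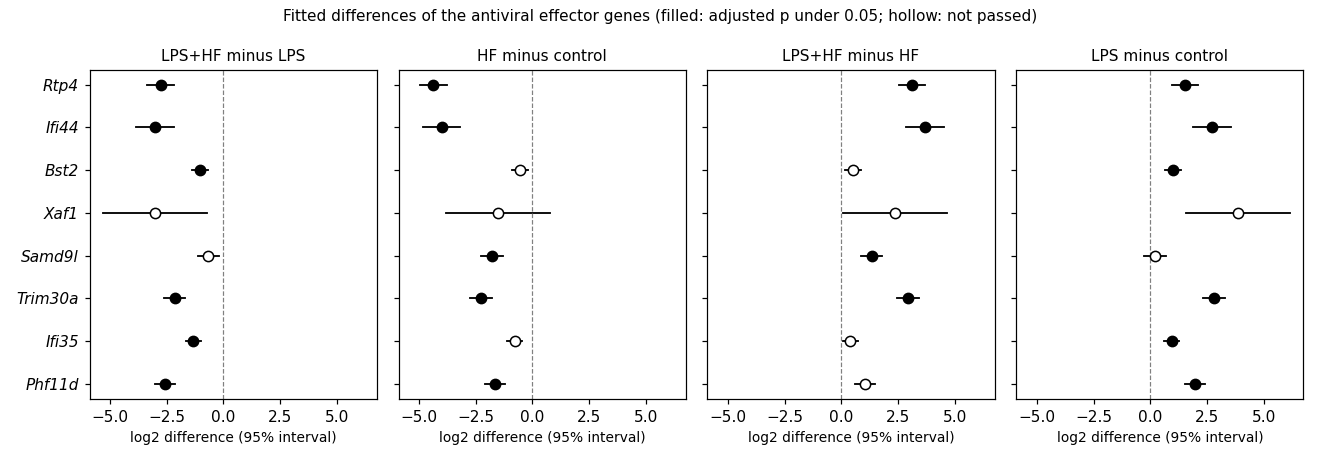
Log2 differences (horizontal axis) of the 8 antiviral effector genes in 4 comparisons, with 95% intervals from limma; filled symbols had an adjusted p under 0.05 and hollow ones did not. All 8 estimates lie below 0 for LPS+HF minus LPS and for HF minus control, and above 0 for LPS minus control and LPS+HF minus HF. For Trim30a, HF and control cells were both below background, so its HF minus control symbol shows no measured fall.

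Rtp4 encodes a Golgi-associated chaperone of membrane receptors that is induced by interferon and restricts flaviviruses. It read 2.10 and 1.70 in LPS+HF cells, against 4.62 and 4.72 in LPS cells. It read -1.20 and -1.21 in HF cells, against 3.44 and 2.87 in control cells. The HF arrays thus lay far below all others, and none of the 4 groups overlapped. Rtp4 was 6.83-fold lower in LPS+HF than in LPS cells (log2 difference -2.77 ± 0.24 SE, adjusted p = 0.009). It was 20.5-fold lower in HF than in control cells (-4.36 ± 0.24, adjusted p = 0.0069), with a 95% interval of 13.7- to 30.5-fold. This was the largest estimated fall with HF alone among the 8 genes in this fit.

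LPS alone raised Rtp4 2.87-fold (log2 difference 1.52 ± 0.24 SE, adjusted p = 0.016), and with HF present LPS raised it 8.60-fold over HF cells (3.10, adjusted p = 0.0045). LPS+HF cells remained 2.38-fold below control cells (-1.25 ± 0.24, adjusted p = 0.044). This last call was lost with no scaling between arrays, where the log2 difference was -0.31 with an adjusted p of 0.44. The call of the fall with HF alone held without scaling, at 12.9-fold (adjusted p = 0.0045), and in 21 of 25 alternatives. It was lost with normexp and quantile normalization, where the log2 difference was -3.05 (adjusted p = 0.07). Array weights (adjusted p = 0.14) and only the arrays compared (adjusted p = 0.27) also lost it.

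Ifi44, an interferon-induced cytoplasmic protein with reported antiviral activity, read -0.50 and -1.19 in LPS+HF cells, against 2.04 and 2.30 in LPS cells. It read -4.80 and -4.26 in HF cells, against -0.22 and -0.84 in control cells, and 1 of the HF arrays was not well above background for it. Both LPS arrays were the highest, both HF arrays the lowest, and the LPS+HF and control arrays overlapped. The level was 8.07-fold lower in LPS+HF than in LPS cells (adjusted p = 0.013) and 16.0-fold lower in HF than in control cells (95% interval 8.99 to 28.6, adjusted p = 0.018). LPS raised it 6.50-fold over control cells (2.70 ± 0.34, adjusted p = 0.009) and 12.9-fold over HF cells when HF was present (3.69 ± 0.34, adjusted p = 0.0081). LPS+HF and control cells did not differ by the test (log2 difference -0.31, 95% interval -1.15 to 0.52, adjusted p = 0.55). The fall in HF cells depended on the background correction: with normexp and quantile normalization the log2 difference was -1.75 and the call was lost, adjusted p = 0.07.

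Bst2, tetherin, moved over a much smaller range. It read 6.16 and 5.98 in LPS+HF cells, against 7.09 and 7.13 in LPS cells. It read 5.55 and 5.61 in HF cells, against 6.03 and 6.22 in control cells. The LPS arrays were highest and the HF arrays lowest, while LPS+HF and control arrays overlapped. LPS+HF cells were 2.05-fold below LPS cells (-1.04 ± 0.14, adjusted p = 0.02), and LPS cells were 1.98-fold above control cells (0.99 ± 0.14, adjusted p = 0.014). HF minus control was -0.54 and LPS+HF minus HF 0.49 on the log2 scale, and neither passed (adjusted p = 0.15 and 0.29). Without scaling between arrays, LPS+HF minus LPS was -0.25 and lost its call, and HF minus control was 0.13 and LPS+HF minus control 0.89, both of the opposite sign.

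Samd9l encodes a large cytoplasmic protein that restricts poxviruses and cell growth. Its brighter probe read 0.30 and -0.05 in LPS+HF cells, against 0.70 and 0.89 in LPS cells. The same probe read -1.32 and -1.09 in HF cells, against 0.47 and 0.70 in control cells. LPS and control arrays overlapped, and the HF arrays stood below the rest. HF cells were 3.46-fold below control cells (-1.79 ± 0.19, adjusted p = 0.024), and LPS+HF cells were 2.52-fold above HF cells (1.33, adjusted p = 0.04). LPS minus control was 0.21 (95% interval -0.26 to 0.68, adjusted p = 0.48) and LPS+HF minus LPS -0.67 (adjusted p = 0.10). A second probe gave the same signs, with -2.08 for HF minus control (adjusted p = 0.052) and 1.63 for LPS+HF minus HF (adjusted p = 0.085) in a fit over 30344 probes. The spot of the brighter probe on control replicate 1 lay in the dimmed area, and without that array HF minus control was -1.91 (adjusted p = 0.031).

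Xaf1, a protein that opposes the caspase inhibitor XIAP and promotes apoptosis, had 1 control array far from the other. Its brighter probe read 0.85 and 0.43 in LPS+HF cells, against 3.59 and 3.74 in LPS cells. The same probe read -2.11 and -1.37 in HF cells, against -1.77 and 1.34 in control cells. The -1.77 was from control replicate 1, whose spot was not well above background and lay in the dimmed area. With both control arrays, none of the comparisons passed, and the spread of this gene was wide: LPS minus control was 3.88 ± 0.94 (adjusted p = 0.052), and LPS+HF minus LPS was -3.03 ± 0.94 (adjusted p = 0.12).

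Without control replicate 1, LPS minus control for Xaf1 was 2.33 (adjusted p = 0.014) and HF minus control -3.08, 8.45-fold lower (adjusted p = 0.032). After the correction for local dimming, LPS+HF minus LPS was -3.05 (adjusted p = 0.0014) and HF minus control -2.82 (adjusted p = 0.0075). A second, dimmer Xaf1 probe read -5.02 and -5.47 in LPS+HF cells, against -3.56 and -3.58 in LPS cells. It read -5.52 and -6.74 in HF cells, against -3.69 and -3.42 in control cells. On that probe LPS and control arrays lay together (LPS minus control -0.01, adjusted p = 0.99), unlike on the brighter probe, and neither HF-treated group was well above background.

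Ifi35 encodes an interferon-induced protein that pairs with NMI. It read 2.20 and 2.02 in LPS+HF cells, against 3.48 and 3.42 in LPS cells. It read 1.68 and 1.76 in HF cells, against 2.49 and 2.51 in control cells. The groups did not overlap. LPS+HF cells were 2.54-fold below LPS cells (-1.34 ± 0.14, adjusted p = 0.011), and LPS cells were 1.94-fold above control cells (0.95 ± 0.14, adjusted p = 0.012). HF minus control was -0.77 (adjusted p = 0.076), LPS+HF minus HF 0.39 (adjusted p = 0.42) and LPS+HF minus control -0.39 (adjusted p = 0.14).

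Trim30a, a mouse ubiquitin ligase that dampens Toll-like receptor signalling by degrading TAB2 and TAB3, was the dimmest member. It read -3.45 and -3.64 in LPS+HF cells, against -1.51 and -1.28 in LPS cells. It read -6.28 and -6.71 in HF cells, against -4.17 and -4.26 in control cells, and was not well above background on any of these 4 arrays. It was thus measured above background only where LPS had been given, and it passed the filter on dim probes through those groups alone. LPS+HF cells were 4.46-fold below LPS cells (-2.16 ± 0.20, adjusted p = 0.0099). LPS minus control (adjusted p = 0.002) and LPS+HF minus HF (adjusted p = 0.003) passed. For a fold, the dim group was replaced by the lowest signal of any probe well above background on the array, where that was higher. This gave 6.77-fold for LPS over control cells and 1.68-fold for LPS+HF over HF cells. Probes not well above background can lie above that lowest signal, so these folds are not lower bounds. HF minus control passed (-2.28, adjusted p = 0.018), but with both groups below background no fold is given and this shows no measured fall. Under normexp with quantile normalization the log2 differences were smaller: LPS minus control was 1.22 (2.33-fold, adjusted p = 0.016), below the 6.77-fold given above. With the same correction the other calls were lost, with LPS+HF minus LPS at -0.90 (adjusted p = 0.062), LPS+HF minus HF at 0.62 (adjusted p = 0.36) and HF minus control at -0.30 (adjusted p = 0.42).

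Phf11d, a PHD-finger protein of a mouse gene cluster, read 2.96 and 2.69 in LPS+HF cells, against 5.35 and 5.44 in LPS cells. It read 1.73 and 1.83 in HF cells, against 3.61 and 3.24 in control cells. The groups did not overlap, and LPS arrays stood well above the rest. The level was 5.92-fold lower in LPS+HF than in LPS cells (-2.57 ± 0.19, adjusted p = 0.008) and 3.13-fold lower in HF than in control cells (-1.64 ± 0.19, adjusted p = 0.027). The call for HF minus control held in 11 of 25 alternatives, and without scaling the log2 difference was -0.98 (adjusted p = 0.064). LPS raised Phf11d 3.92-fold over control cells (1.97 ± 0.19, adjusted p = 0.0042). With HF present, LPS+HF minus HF was 1.05 and did not pass (adjusted p = 0.075).

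**Figure D3:**
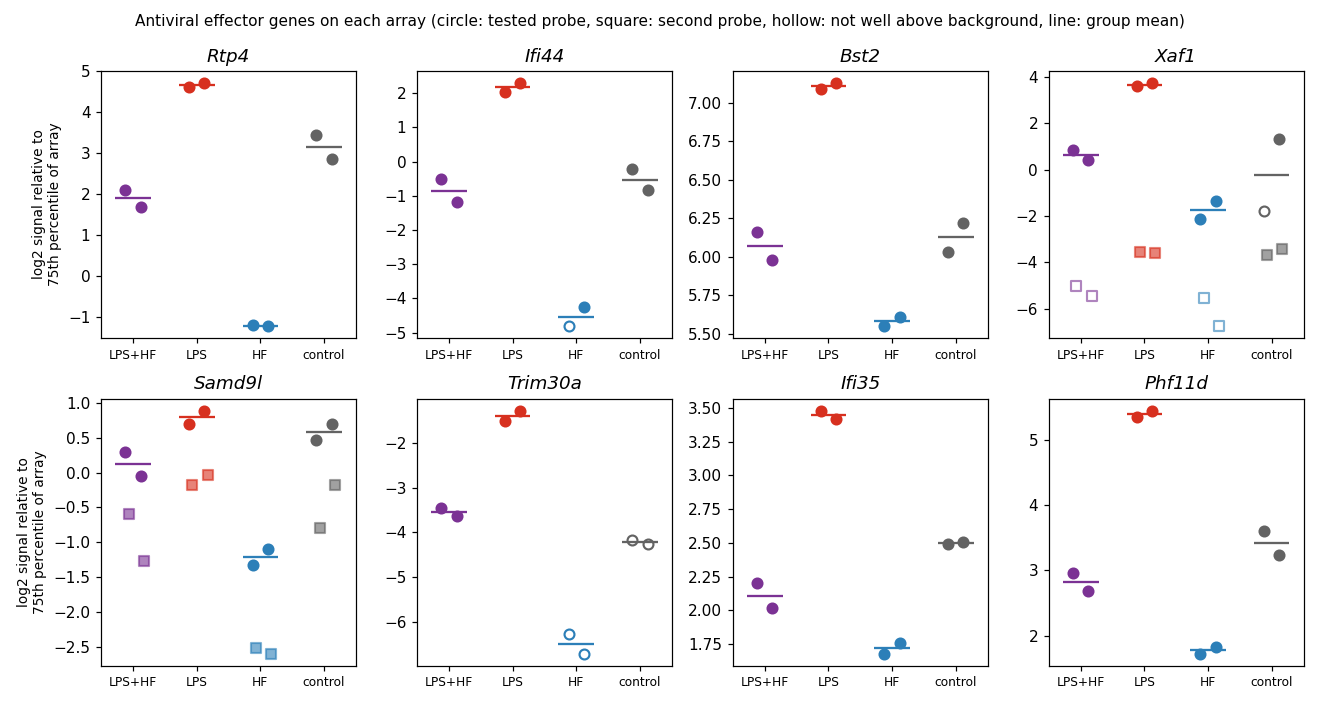
Level of each antiviral effector gene on each of the 8 arrays, as log2 of the processed signal relative to the array's 75th percentile, with 2 arrays and a line for the mean in each group; circles are the tested probe, squares a second probe, and hollow symbols are not well above background. By the tested probe both LPS arrays are the highest except for Samd9l, where 1 control array matches them. Both HF arrays are the lowest except for Xaf1. The share of all genes with such an order is not given here.

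The order of the group means was LPS, control, LPS+HF, HF, from high to low, for Rtp4, Ifi44, Bst2, Samd9l, Ifi35 and Phf11d. For Trim30a and Xaf1 the LPS+HF mean lay above the control mean. These orders are descriptive, since their share over all genes is not given here. LPS+HF and control, neighbours in this order, differed by the test for Rtp4 alone. LPS+HF and HF did not differ by the test for Bst2, Ifi35, Phf11d and Xaf1, and LPS and control did not for Samd9l and Xaf1. The 8 genes followed each other across the 8 arrays: the 28 pairwise correlations ran between 0.753 for Xaf1 with Samd9l and 0.993 for Ifi35 with Phf11d. These arrays fall into 4 treatment groups, which the pairs share, so the correlations are descriptive. Genes outside the members with a symbol through RefSeq were ranked by likeness to the mean profile of the members over the 8 arrays. Tested genes without a symbol were left out. The most like were Apol9b (r = 0.998), C130026I21Rik (0.995), Mpeg1 (0.995), Clec4e (0.993) and Wfdc17 (0.991).

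Whether LPS acted on these genes differently with and without HF was tested as an interaction. None of the 8 passed, against 0.0534% of all genes called. An unadjusted p under 0.05 by limma was seen for 4 of the 8, against 2595 of all 22460 genes. For Rtp4 the LPS response was 3.10 with HF and 1.52 without it, a difference of 1.58 (95% interval 0.77 to 2.40, adjusted p = 0.20). For Samd9l it was 1.33 with HF and 0.21 without, a difference of 1.12 (adjusted p = 0.24). Phf11d went the other way, with 1.05 with HF and 1.97 without, a difference of -0.92 (adjusted p = 0.30). The interval of Ifi44 (-0.19 to 2.17) included 0, and the LPS responses of Trim30a cannot be ranked, since both baselines were below background. After the correction for local dimming, Rtp4 (1.36, adjusted p = 0.03) and Phf11d (-1.10, adjusted p = 0.038) passed, and both calls were lost when the replicate block was added to it (adjusted p = 0.059 and 0.07). With that correction alone, 462 of all 22460 genes were called higher and 335 lower. The interaction of Rtp4 was 1.87 without control replicate 2 and 1.30 without control replicate 1. That of Samd9l was 1.01 and 1.24. Either fit leaves 1 control array, and in both more of all genes were called than with all 8 arrays. Calls in these fits are therefore not read as a result about the members.

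**Figure D4:**
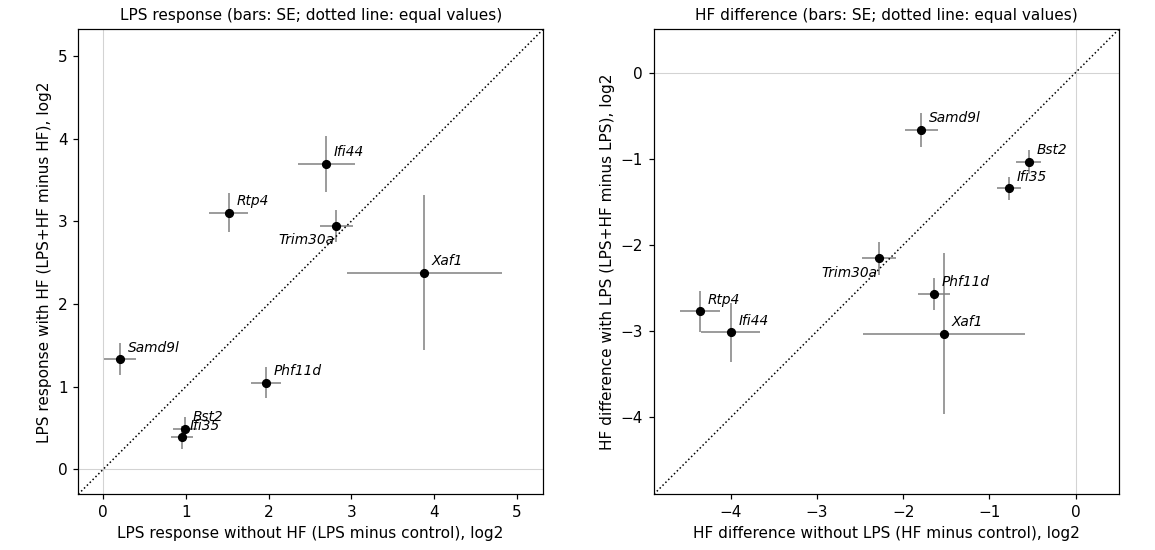
Log2 response to LPS with HF against that without HF, and log2 difference with HF in the presence of LPS against that in its absence, 1 point for each of the 8 genes with bars of 1 SE, and a dotted line of equal values. Rtp4, Ifi44 and Samd9l lie above the line for the LPS response, and Bst2, Ifi35, Phf11d and Xaf1 below it; Trim30a, with both baselines below background, cannot be ranked, and no difference passed the test.

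Other genes of the interferon programme were counted in lists also written with earlier results of these arrays known. Of 47 other interferon-stimulated genes tested, 24 fell and 0 rose in LPS+HF relative to LPS cells, against 3.26% of all genes called lower. The median log2 difference of the 47 was -1.54. Ifit3 fell 12.7-fold (adjusted p = 0.008), Isg15, a ubiquitin-like modifier, fell 11.6-fold (adjusted p = 0.0088), and Ifit3b and Isg20 fell 9.94- and 8.09-fold. In HF relative to control cells 7 fell and 0 rose, against 0.739% of all genes called lower. Among the falls were Ifi27l2a, 7.52-fold (adjusted p = 0.013), and Isg15, 6.89-fold (adjusted p = 0.023). In LPS relative to control cells 31 rose and 0 fell, against 4.8% of all genes called higher. The largest rises were in Gbp2, an interferon-induced GTPase, at 108-fold, and in the chemokine gene Cxcl10, at 55.2-fold.

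Some of these genes were above the control level when both agents were given. In LPS+HF relative to control cells, 7 of the 47 rose and 1 fell, against 1.92% of all genes called higher and 3.17% called lower. The 1 fall was thus no more than the share of all genes. Gbp2 was 15.5-fold higher (adjusted p = 0.0025), Cxcl10 13.5-fold (adjusted p = 0.0004) and Rsad2 (viperin, an antiviral enzyme) 4.83-fold (adjusted p = 0.014), while Ifi27l2a was 4.85-fold lower (adjusted p = 0.007). In LPS+HF relative to HF cells 14 rose and 0 fell, against 0.904% of all genes called higher. Among the rises were Cxcl10 at 53.6-fold and Rsad2 at 14.7-fold. For the interaction none of the 47 passed with limma, and 11 had an unadjusted p under 0.05, against 2595 of all 22460 genes.

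In LPS+HF relative to LPS cells 3.26% of all genes were called lower. Of 25 genes of interferon induction and signalling tested, 3 fell and 0 rose in that comparison. They were Irf7, the transcription factor that amplifies interferon production (7.23-fold, adjusted p = 0.017), Usp18, which restrains interferon signalling (4.65-fold, adjusted p = 0.0093), and Cd14, a co-receptor for LPS (1.90-fold, adjusted p = 0.03). In HF relative to control cells 1 fell, Usp18 (3.39-fold, adjusted p = 0.025), against 0.739% of all genes called lower. In LPS relative to control cells 5 rose and 1 fell, against 1078 of all 22460 genes called higher and 1424 lower. The 1 fall there was no more than the share of all genes. Of 20 relatives and partners of the members tested, 5 fell and 0 rose in LPS+HF relative to LPS cells, against the same 3.26% of all genes. Phf11b and Phf11a, of the same gene cluster as Phf11d, fell 8.17-fold (adjusted p = 0.0052) and 7.12-fold (adjusted p = 0.011), and Trim12c fell 4.10-fold. Whether the probes of these related genes also bind Phf11d transcripts was not tested. Nmi, the partner of Ifi35, had -0.62 (adjusted p = 0.12) in that comparison, and Xiap, the target of Xaf1, 0.34 (adjusted p = 0.30); both were picked after their values were seen.

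**Figure D5:**
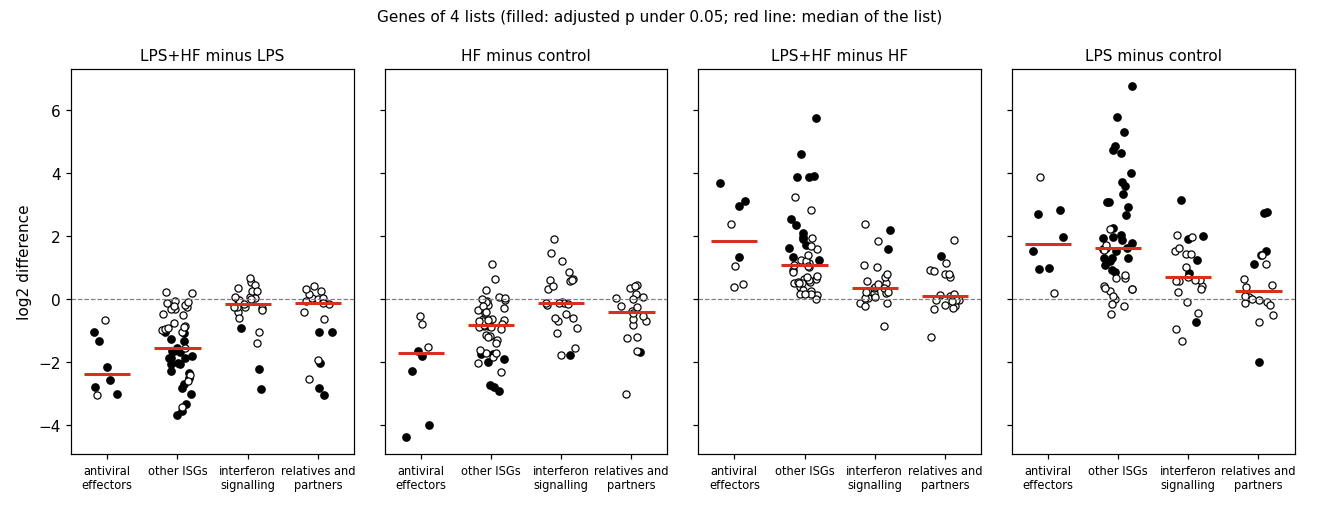
Log2 differences of single genes in the antiviral effector list and in 3 lists of the interferon programme, in 4 comparisons; filled points had an adjusted p under 0.05 and the red line is the median of each list. In LPS+HF minus LPS the medians are -2.36 for the effectors, -1.54 for other interferon-stimulated genes, -0.16 for induction and signalling and -0.12 for relatives and partners.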

How the data were processed

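Total RNA of BV-2 cells was hybridised to 8 Agilent arrays of 1 colour, and the labels give 4 groups of 2. Per the file headers, the deposited intensity of each spot was made with Agilent Feature Extraction 11.5.1.1, with the background subtracted and no scaling between arrays. The log2 values of the deposited series matrix, made by the authors, were used as an alternative; each column had a median between -0.11 and 0.19, and recomputing them showed that the 75th percentile of an array and then the median of a probe had been subtracted. The array's design build was mm9, per the file headers.

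Here the processed signals were converted to log2 and shifted to each array's 75th percentile. A probe was kept where both arrays of some group were well above background (30344), with 1 probe per gene, that of the highest mean (22460 genes, of which 13802 had a symbol through RefSeq). Group means of all 8 arrays were fitted with limma 3.58.1 in R 4.3.3 (4 residual and 2.04 prior degrees of freedom), two-sided, with Benjamini-Hochberg adjustment over all 22460 genes in each of 6 comparisons and a threshold of 0.05. The fit was tested on simulated data. The members and lists were chosen with earlier results of these data known. Named genes were all members and, from each other list, up to 4 passing genes with the largest difference, or up to 2 as values where none passed. The number of arrays limits the precision. Same-numbered arrays correlated between -0.09 and 0.27 in their deviations from group means, so the numbers were not taken to pair arrays. Alternatives were the background correction (normexp, offset 50, on median signals), normalization, probe filter, probe choice, variance model, replicate block, only the arrays compared, a spatial correction (windows of 30 rows and 15 columns, spots dimmed more than 4-fold masked), array weights and each array left out. No scaling, median scaling over the tested genes and leaving out both marked arrays were added after the data were seen. Slide or scan as a block was not run, with 1 of each. Scripts used Python 3.11.15, pandas 2.3.3, numpy 2.4.6 and matplotlib 3.10.9.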

Additional observations from a re-analysis of the deposited data

How the results depend on the processing

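With 2 arrays a group, whether a gene passed depended on the setting more than its direction did. Of 542 values of the called differences of single effector genes under the alternatives, 394 stayed past the threshold in the same direction, 148 lost the call and 0 changed sign. Of 632 values of the differences not called, 55 became called and 31 changed sign. The causes of these changes were not tested.

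The count of effector genes passing was 6 for LPS minus control. It was 3 with no filter on dim probes, 1 with array weights and 0 with only the arrays compared (7 at an unadjusted p under 0.05 with limma). In that last setting 3883 of all 22460 genes had such an unadjusted p. For HF minus control the count was 5. It was 0 with the normexp correction, with array weights and with only the arrays compared (4, 6 and 6 at an unadjusted p under 0.05 with limma). Of all 22460 genes, 2916, 1688 and 1717 had such an unadjusted p, in the same order. The count was 1 with no filter, 2 with median scaling, 3 with probes above background on all arrays and 3 with the replicate block. It was 3 with no scaling, 3 without both marked arrays and 8 with the spatial correction. In HF minus control no gene of all 22460 passed with array weights or with only the arrays compared. With the spatial correction 1345 were called lower there. For LPS+HF minus LPS the count of effector genes was 6, and 3 with the normexp correction. For LPS+HF minus HF it was 4, with 2 under the normexp correction, 2 with probes above background on all arrays and 7 with the spatial correction. For LPS+HF minus control it was 1. It was 0 with the normexp correction, median scaling, no filter, the replicate block, only the arrays compared and array weights (1, 2, 3, 4, 2 and 1 at an unadjusted p under 0.05 with limma). Over all genes 4584, 5525, 6739, 6176, 3170 and 3115 had such an unadjusted p, in the same order. These were of 22460 genes, or of 36799 with no filter. In that comparison no gene at all passed with only the arrays compared. Of all 22460 genes, 10319 were called higher with no scaling. With the spatial correction alone 2428 were called higher and 3192 lower. The count of effector genes was 2 with the spatial correction, with or without the replicate block. It was 2 with no scaling, where Bst2 and Trim30a passed as higher. For the interaction the count was 0, with 2 under the spatial correction. Under that correction with the replicate block it was 0 (5 at an unadjusted p under 0.05 with limma). In that last setting 4772 of all 22460 genes had such an unadjusted p. The replicate block alone changed no other count by over 1.5 times, and the numbers do not pair the arrays.

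Leaving out 1 array gave counts of 1 to 7 for LPS minus control, 0 to 7 for HF minus control, 0 to 8 for LPS+HF minus LPS, 1 to 6 for LPS+HF minus HF, 0 to 3 for LPS+HF minus control and 0 to 6 for the interaction. For LPS minus control the count was 1 without either LPS array. For LPS+HF minus LPS it was 0 without either LPS array or LPS+HF replicate 2, and 1 without LPS+HF replicate 1. For HF minus control it was 0 without HF replicate 1, 1 without HF replicate 2 or either LPS array, and 2 without either LPS+HF array. For LPS+HF minus HF it was 1 without LPS+HF replicate 1 or HF replicate 1. For LPS+HF minus control the call was lost without any 1 of the 6 treated arrays. For LPS+HF minus control and the interaction the counts were highest without control replicate 2, which leaves control replicate 1 as the only control array. Over all genes, too, more were called without either control array and fewer without any 1 treated array, in each of the 6 comparisons. The changes in these counts are therefore not particular to the effector genes. A group left with 1 array was assumed to vary like the others.

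All log2 differences that changed sign belonged to results not called. With no scaling they were 0.13 for Bst2 in HF minus control, 0.12 for Samd9l in LPS+HF minus LPS, and, in LPS+HF minus control, 0.63 for Ifi44, 0.89 for Bst2, 0.56 for Ifi35, 0.49 for Samd9l and 0.35 for Phf11d. Scaling mattered for all genes: with no scaling the median of all genes was 0.81 in LPS+HF minus control, 0.71 in LPS+HF minus LPS and 0.60 in HF minus control. With median scaling LPS+HF minus control was 0.19 for Ifi44, 0.45 for Bst2, 0.11 for Ifi35 and 0.043 for Samd9l. Quantile normalization gave 0.14 for Bst2, and the normexp correction 0.018 for Ifi35 and 0.34 for Samd9l. Leaving out arrays gave 0.033 for Ifi44 and 0.038 for Bst2 (without LPS+HF replicate 2), 0.042 for Bst2 (without control replicate 2), and 0.0005 for Ifi44 and -0.70 for Xaf1, without control replicate 1 or without both marked arrays. Xaf1 was -0.42 with the mean over probes, -0.64 with the spatial correction and -0.61 with it and the replicate block. In HF minus control Xaf1 ran between -3.08 and 0.032 when 1 array was left out. Over the same settings LPS+HF minus control ran between -0.66 and 0.033 for Ifi44, between -0.15 and 0.042 for Bst2 and between -0.70 and 2.41 for Xaf1, and the interaction of Xaf1 between -3.06 and 0.049. For the interaction the values were -0.88 for Ifi44 with the normexp correction, 0.049 for Xaf1 without control replicate 1, and for Trim30a -0.60 with normexp, -0.24 with quantile normalization, -0.11 with median scaling and -0.092 without HF replicate 2.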
